A study of Mus musculus with 4 samples.

Results

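A set of 10 genes of the endothelium and of the VEGF pathway were followed in gastrocnemius muscle, a calf muscle of the mouse. They were taken by gene name, and 10 of the 22252 gene names in the data were those of Pecam1, Cdh5, Kdr, Flt1, Tek, Tie1, Vegfa, Vegfb, Angpt1 and Nos3. Of these, 10 of 10 had counts above 0 in all 4 libraries, as did 14206 genes in all, which form the background of every comparison. RNA-seq was performed on 4 groups of 7-week-old male C57BL/6J mice, and the RNA of 3 mice was pooled into 1 library per group.

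Every group carried floxed alleles of Nr3c1, the gene of the glucocorticoid receptor (GR), on both chromosomes. The lean GRf/f group had no Cre and had intact leptin genes. The lean GRmKO group also carried Acta1-Cre, which is expressed in myofibres and removes exon 3 of Nr3c1 there. The ob/ob GRf/f and ob/ob GRmKO groups had the same genotypes on a background that lacks leptin (Lepob/ob), which makes mice obese. The promoter of Acta1 directs Cre to muscle fibres, so the deletion is not aimed at endothelial cells. The design asks how obesity and the loss of GR in muscle fibres bear on expression in muscle. No group was obese with intact leptin, so a change given below as one with obesity cannot be told apart from one with loss of leptin. With 1 library per group there is no measure of the variation between mice, so no difference below was tested. Each value is in CPM, the count of a gene scaled to the size of its library, and its 95% interval covers counting error only.

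Capillaries run along every muscle fibre, and their wall is a single layer of endothelial cells. The ligand VEGF-A, made in skeletal muscle largely by the fibres, acts on the receptor VEGFR2 of endothelial cells, while VEGFR1 binds VEGF-A and VEGF-B and restrains signaling through VEGFR2. Angiopoietin-1, made by cells around the vessel, activates the receptor TIE2 and stabilizes the vessel wall, and endothelial nitric oxide synthase makes the nitric oxide that widens vessels.

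Expected counts per library ranged from 19897754 to 20959781, and 3 counts correspond to between 0.143 and 0.151 CPM. Nr3c1 was at 125 CPM in lean GRf/f and 67.0 CPM in lean GRmKO mice, and at 102 CPM in ob/ob GRf/f and 39.1 CPM in ob/ob GRmKO mice. It was thus lower in both libraries labelled GRmKO, although the count covers all exons and does not measure the floxed exon itself. Defining genes of the muscle fibre summed to between 102580 and 118062 CPM over 6 of 6 genes, led by Acta1 and Myh4, and the endothelial genes Pecam1 and Cdh5 were present in every library. In bulk muscle RNA, fewer endothelial cells and less RNA of a gene per endothelial cell cannot be told apart.

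The promoters are shown for 3 receptor genes, as these encode the receptors of VEGF and of the angiopoietins. RefSeq promoter windows on GRCm38.p6 matched 6 of the 10 genes in 7 windows, as Vegfa has more than 1 start, and those of Pecam1, Cdh5, Angpt1 and Nos3 were not matched. The stretches run from 250 to 11 bases before the annotated start, 5′ to 3′ in the direction of transcription. Capitals mark GGAAG, the core of the site bound by ETS factors, or its complement on the opposite strand.
Flt1 (chr5:147726022-147726261, minus strand): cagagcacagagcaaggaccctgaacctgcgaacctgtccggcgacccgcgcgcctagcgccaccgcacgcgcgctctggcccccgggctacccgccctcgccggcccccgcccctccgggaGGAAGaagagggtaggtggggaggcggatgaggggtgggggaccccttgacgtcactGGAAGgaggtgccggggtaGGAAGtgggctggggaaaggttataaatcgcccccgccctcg
Kdr (chr5:75978466-75978705, minus strand): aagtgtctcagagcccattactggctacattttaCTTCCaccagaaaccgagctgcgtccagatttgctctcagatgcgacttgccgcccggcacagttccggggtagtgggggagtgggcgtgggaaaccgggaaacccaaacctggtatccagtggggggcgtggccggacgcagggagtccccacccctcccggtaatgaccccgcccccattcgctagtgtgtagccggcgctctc
Tek (chr4:94739039-94739278, plus strand): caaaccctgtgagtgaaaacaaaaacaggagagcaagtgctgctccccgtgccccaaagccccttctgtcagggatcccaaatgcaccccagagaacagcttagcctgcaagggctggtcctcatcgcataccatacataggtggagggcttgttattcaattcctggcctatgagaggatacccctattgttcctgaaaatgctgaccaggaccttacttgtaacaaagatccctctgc
In the 250 bases before the start, Flt1 held GGAAG 3 times, with first bases 128, 71 and 52 bases before the start, and TATAAA 31 bases before it. Kdr held GGAAG 1 time, on the opposite strand 216 bases before the start, and Tek held none. Tek held AGAACA, a partial site of the glucocorticoid response element, 158 bases before the start. The window of Tie1 held GGAAG 6 times and that of Vegfb held none of the motifs searched. The window of Tie1 lies partly within the gene, which by its GENCODE coordinates reaches to 118490061. Its matches 178, 91, 81 and 17 bases before the RefSeq start lie within the gene and not upstream of it. The search covered both strands, and no matches overlapped in the 3 stretches shown. Besides GGAAG and AGAACA, it was made for ACGTG, the core of the hypoxia response element, for the CCAAT box and for TATAAA. Of 32851 promoter windows of the same length, 64.1% held GGAAG and 16.1% held AGAACA. The share was 16.6% for ACGTG, 33.8% for the CCAAT box and 12.4% for TATAAA. The motif ACGTG was found in 1 of the 2 windows of Vegfa, 211 bases before the start, in the window that lies within the gene. That match is in sequence transcribed from the other start of Vegfa and not upstream of the gene. These matches are letters in a window and do not show binding.

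Pecam1 and Cdh5 encode the adhesion molecules that join endothelial cells, PECAM-1 (CD31) and VE-cadherin. Pecam1 (ENSMUSG00000020717.19) is a minus-strand gene (GRCm38, chromosome 11, 106654217 to 106750628). Its level was 66.4 CPM in lean GRf/f (63.0–70.0), 78.5 in lean GRmKO (74.7–82.5), 52.0 in ob/ob GRf/f (49.0–55.1) and 48.0 in ob/ob GRmKO mice (45.1–51.1). Cdh5 (ENSMUSG00000031871.9; chromosome 8, plus strand, 104101625 to 104144511) was at 218 CPM (212–225), 257 CPM (251–265), 173 CPM (168–179) and 157 CPM (152–163) in the same order. Both genes had their highest level in lean GRmKO and their lowest in ob/ob GRmKO mice, and neither interval of a lean library overlapped with one of an ob/ob library. With obesity, the log2 fold change was -0.35 for Pecam1 (-0.47 to -0.24) and -0.33 for Cdh5 (-0.40 to -0.27) in GRf/f mice. In GRmKO mice it was -0.71 for each, with intervals of -0.82 to -0.59 for Pecam1 and -0.78 to -0.65 for Cdh5. The ratio of Pecam1 to Cdh5 counts within a library stayed between 0.300 and 0.306 in all 4, so the pair kept its proportion while its level differed between libraries. This ratio does not depend on how libraries are scaled to each other.

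Kdr and Flt1 encode the VEGF receptors VEGFR2 and VEGFR1. Kdr (ENSMUSG00000062960.10; chromosome 5, minus strand, 75932827 to 75978458) was at 80.0 CPM in lean GRf/f (76.2–83.9), 95.8 in lean GRmKO (91.6–100.2), 65.3 in ob/ob GRf/f (61.9–68.9) and 60.3 in ob/ob GRmKO mice (57.1–63.7). Flt1 (ENSMUSG00000029648.13; chromosome 5, minus strand, 147561604 to 147726011) was at 103 CPM in both lean libraries, 71.6 CPM in ob/ob GRf/f (68.1–75.3) and 65.4 CPM in ob/ob GRmKO mice (62.1–69.0). Each receptor was lower in both ob/ob libraries than in either lean library. The log2 fold change with obesity was -0.29 for Kdr and -0.53 for Flt1 in GRf/f mice, and -0.67 and -0.65 in GRmKO mice. Flt1 thus had the lowest value of the 10 genes in GRf/f mice, where Kdr lay close to the junction genes. The ratio of Kdr to Flt1 counts was 0.775 in lean GRf/f mice (0.726–0.827) and 0.931, 0.912 and 0.922 in the lean GRmKO, ob/ob GRf/f and ob/ob GRmKO libraries. Lean GRf/f mice therefore stood apart from the other libraries in the balance of the receptors, with a counting interval that overlapped with none of the others. Kdr per 100 counts of Pecam1 plus Cdh5 stayed between 28.1 and 29.4, whereas Flt1 was at 36.3 in lean GRf/f and between 30.6 and 31.9 in the other 3 libraries.

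Tek encodes TIE2, the receptor of the angiopoietins, and Tie1 a related receptor that modulates it. Tek (ENSMUSG00000006386.15; chromosome 4, plus strand, 94739289 to 94874976) was at 32.3 CPM in lean GRf/f (29.9–34.8), 43.1 in lean GRmKO (40.3–46.1), 25.4 in ob/ob GRf/f (23.3–27.6) and 20.5 in ob/ob GRmKO mice (18.6–22.5). Tie1 (ENSMUSG00000033191.14; chromosome 4, minus strand, 118471191 to 118490061) was at 81.3 CPM (77.6–85.3), 90.4 CPM (86.3–94.7), 62.6 CPM (59.3–66.1) and 55.6 CPM (52.5–58.8) in the same order. Both had the same order of libraries as Pecam1, Cdh5 and Kdr, and the range was wider for Tek. In GRmKO mice the log2 fold change of Tek with obesity was -1.07 (-1.24 to -0.90), a level in ob/ob mice 0.475 times that in lean mice. In GRf/f mice it was -0.35 (-0.52 to -0.18). For Tie1 the values were -0.38 in GRf/f and -0.70 in GRmKO mice. The ratio of Tek to Tie1 counts was 0.397 in lean GRf/f, 0.476 in lean GRmKO, 0.405 in ob/ob GRf/f and 0.368 in ob/ob GRmKO mice, and was thus highest where both receptors were highest.

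Nos3 encodes endothelial nitric oxide synthase. Nos3 (ENSMUSG00000028978.12; chromosome 5, plus strand, 24364810 to 24384474) was at 29.3 CPM in lean GRf/f (27.1–31.7), 33.7 in lean GRmKO (31.2–36.3), 27.2 in ob/ob GRf/f (25.1–29.5) and 21.5 in ob/ob GRmKO mice (19.6–23.6). The GRf/f libraries had overlapping intervals, and the ob/ob GRmKO library lay below the others. The log2 fold change with obesity was -0.11 in GRf/f mice (-0.27 to 0.06), where it turned to 0.01 with DESeq2's size factors, and -0.65 in GRmKO mice (-0.82 to -0.47). Exons of Nos3 overlap with those of Atg9b and of an antisense RNA, Gm15587, on the opposite strand, and whether the libraries kept the strand is not given in the sources used here. Atg9b itself had from 8.10 to 15.1 expected counts, against 451 to 670 for Nos3.

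**Figure D1:**
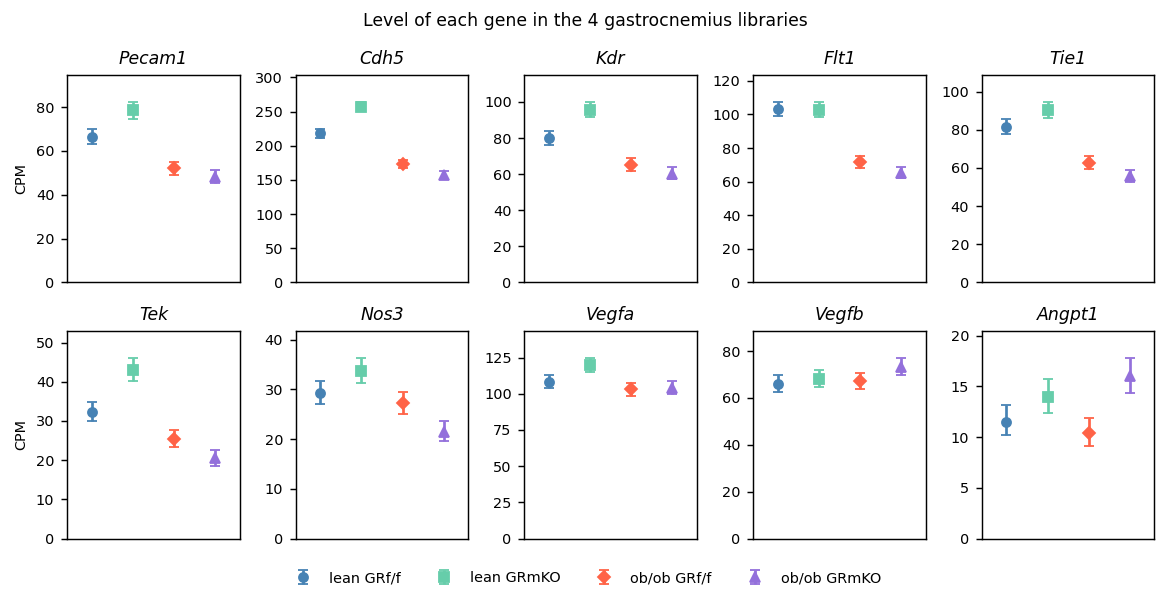
Level of each of the 10 genes in the 4 libraries, in CPM from 0, with 1 point per library of pooled RNA and bars for the 95% Wilson interval of the count. In the 7 endothelial genes from Pecam1 to Nos3 both ob/ob libraries lie below both lean libraries, whereas Vegfb stays between 66.0 and 73.3 CPM and Angpt1 is highest in ob/ob GRmKO mice.

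The ligands did not share this order of libraries. Vegfa (ENSMUSG00000023951.17; chromosome 17, minus strand, 46016993 to 46032369) was at 108 CPM in lean GRf/f (104–113), 120 in lean GRmKO (115–125), 103 in ob/ob GRf/f (98.7–107) and 104 in ob/ob GRmKO mice (99.9–109). Vegfb (ENSMUSG00000024962.13; chromosome 19, minus strand, 6982473 to 6987651) was at 66.0 CPM (62.6–69.6), 68.2 CPM (64.7–71.9), 67.1 CPM (63.7–70.7) and 73.3 CPM (69.7–77.0). Vegfa spanned 103 to 120 CPM and Vegfb 66.0 to 73.3 CPM, a narrower range on the ratio scale than that of any of the receptors. The log2 fold change with obesity was -0.07 for Vegfa in GRf/f mice (-0.16 to 0.01) and -0.20 in GRmKO mice (-0.29 to -0.12). These signs depend on the scaling, since Vegfa was at 0.04 in GRf/f and 0.01 in GRmKO mice relative to the median gene. For Vegfb the values were 0.02 (-0.08 to 0.13) and 0.10 (-0.0028 to 0.21), and both intervals contain 0.

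Angpt1 encodes angiopoietin-1, the activating ligand of TIE2. Angpt1 (ENSMUSG00000022309.9; chromosome 15, minus strand, 42424723 to 42676977) was at 11.5 CPM in lean GRf/f (10.2–13.1), 14.0 in lean GRmKO (12.4–15.7), 10.4 in ob/ob GRf/f (9.15–11.9) and 16.0 in ob/ob GRmKO mice (14.4–17.8). The ob/ob GRmKO library, which had the lowest level of the receptor Tek, had the highest level of its ligand Angpt1. In ob/ob mice the level in GRmKO was 1.53 times that in GRf/f (1.29–1.82), and in lean mice 1.21 times (1.01–1.44). With obesity the log2 fold change of Angpt1 was -0.14 in GRf/f (-0.42 to 0.12) and 0.19 in GRmKO mice (-0.04 to 0.43), and both intervals contain 0. The ratio of Angpt1 to Tek counts was 0.358, 0.325 and 0.412 in the lean GRf/f, lean GRmKO and ob/ob GRf/f libraries and 0.781 in the ob/ob GRmKO library (0.675–0.903). Exons of Angpt1 overlap with those of the antisense RNA Gm17473. Counts of Angpt1 ranged from 219 to 335, the lowest of the 10 genes.

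Levels of different genes were compared per kilobase of the listed transcript. On this scale of CPM per kb, the order in lean GRf/f mice was Vegfb (57.0), Cdh5 (54.6), Vegfa (31.4), Pecam1 (20.5), Tie1 (19.9), Flt1 (15.0), Kdr (13.5), Nos3 (7.09), Tek (6.93) and Angpt1 (2.71). Vegfb and Cdh5, Pecam1 and Tie1, and Nos3 and Tek had overlapping counting intervals there. Angpt1 was last in all 4 libraries and Vegfa followed Vegfb and Cdh5 in all 4. In ob/ob GRmKO mice Vegfb stood at 63.3 and Cdh5 at 39.3 CPM per kb, and Tek at 4.40 and Angpt1 at 3.75, where the intervals of the last pair overlapped. Dividing by the longest protein-coding transcript instead put Cdh5 first in lean GRf/f mice.

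Obesity was compared within each genotype, and these comparisons share no library. In GRf/f mice, 9 of the 10 genes were lower in the ob/ob library, where 62.1% of all genes were, and for 6 of them, Pecam1, Cdh5, Kdr, Flt1, Tek and Tie1, the counting interval excluded 0. None was past 1.5-fold in either direction, where 16.5% of all 14206 genes were past it downward and 7.99% upward, and 6.98% were past 2-fold downward. The median log2 fold change of the 10 genes was -0.31, against -0.11 over all genes. In GRmKO mice, 8 of 10 were lower, where 67.2% of all genes were, so this count is near the background. Past 1.5-fold downward were 7, where 23.9% of all genes were. Those 7 were the endothelial genes Pecam1, Cdh5, Kdr, Flt1, Tek, Tie1 and Nos3. Except for Tek they lay just past that line, between -0.71 and -0.65, and with TMM, DESeq2 or upper quartile factors only Tek remained past it. The share of all genes past it under those factors is not given here. Tek was the only one past 2-fold, where 10.8% of all genes were past 2-fold downward. The median of the 10 genes was -0.66 in GRmKO mice, against -0.21 over all genes, and 0 of 10 were past 1.5-fold upward, where 7.81% of all genes were.

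**Figure D2:**
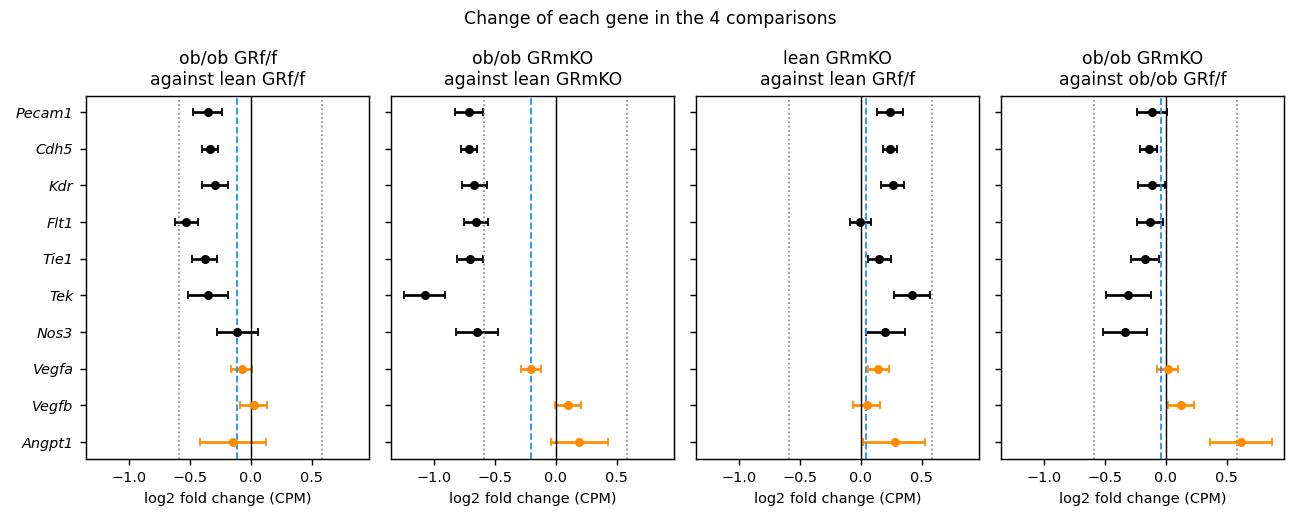
Log2 fold change of each gene in CPM (x axis) in the 4 comparisons, with 95% counting intervals, endothelial genes in black and ligands in orange. Dashed lines mark the median of all 14206 genes and dotted lines a 1.5-fold difference. In GRmKO mice the 7 endothelial genes lie between -1.07 and -0.65 and the 3 ligands between -0.20 and 0.19.

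The median gene itself was shifted by -0.11 with obesity in GRf/f and by -0.21 in GRmKO mice. Relative to the median gene, the values in GRf/f mice were -0.24 for Pecam1, -0.22 for Cdh5, -0.18 for Kdr, -0.41 for Flt1, -0.23 for Tek, -0.26 for Tie1 and 0.0048 for Nos3. In GRmKO mice they were -0.50, -0.51, -0.46, -0.45, -0.87, -0.50 and -0.44 in the same order. The endothelial genes other than Nos3 in GRf/f mice were therefore also lower than the median gene. The 7 endothelial genes together summed to 611 CPM in lean GRf/f, 702 in lean GRmKO, 477 in ob/ob GRf/f and 428 CPM in ob/ob GRmKO mice. Each of the 7 was lower in ob/ob mice of both genotypes, and 49.8% of all genes were.

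Against the endothelial pair Pecam1 plus Cdh5, the ligands and the receptors diverged. Per 100 counts of the pair, Vegfa was at 38.1 in lean GRf/f, 35.6 in lean GRmKO, 45.7 in ob/ob GRf/f and 50.8 in ob/ob GRmKO mice. Vegfb was at 23.2, 20.3, 29.8 and 35.7 in the same order. Both ligands were thus higher relative to the endothelial pair in each ob/ob library than in either lean library, without overlap of the counting intervals. The log2 ratio with obesity was 0.26 for Vegfa and 0.36 for Vegfb in GRf/f mice, and 0.51 and 0.82 in GRmKO mice. The median of all genes relative to the pair was itself at 0.22 in GRf/f and 0.50 in GRmKO mice. Vegfa thus rose against the pair about as much as the median gene did, and Vegfb by more. Angpt1 was at 4.06, 4.16 and 4.63 per 100 in the first 3 libraries and 7.80 in ob/ob GRmKO mice (6.95–8.71). Tek was at 12.8 in lean GRmKO and 9.98 in ob/ob GRmKO mice, so it was lower even relative to the pair, with a log2 ratio of -0.36 (-0.54 to -0.19). Kdr, Flt1, Tie1 and Nos3 kept their proportion to the pair with obesity in GRmKO mice within counting error, with log2 ratios from 0.01 to 0.06. In GRf/f mice the ratio of Nos3 to the pair was 1.17-fold higher with obesity (log2 0.23, 0.05 to 0.40), and that of Flt1 was lower (-0.19, -0.30 to -0.08). The ratio of Vegfa to Flt1, its decoy-type receptor, was 1.05, 1.16, 1.44 and 1.59 in the 4 libraries, a ratio 1.37 times higher with obesity in both genotypes. This change was mostly that of Flt1. Relative to the median gene, Flt1 was at -0.41 in GRf/f and -0.45 in GRmKO mice, and Vegfa at 0.04 and 0.01. Vegfa to Vegfb was at 1.64, 1.76, 1.53 and 1.42.

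**Figure D3:**
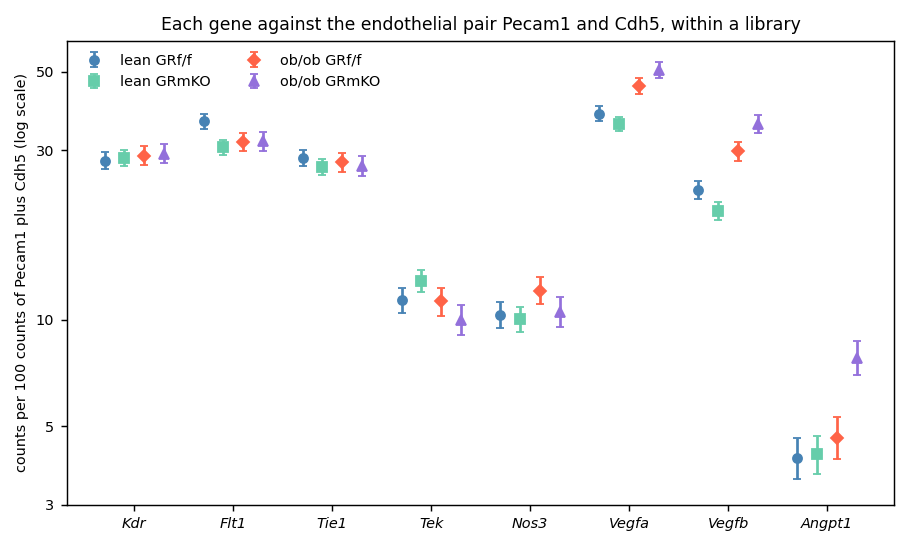
Counts of each gene per 100 counts of Pecam1 plus Cdh5 in the same library (log scale), with exact 95% binomial intervals for counting error. Kdr stays between 28.1 and 29.4 in the 4 libraries, while Vegfa and Vegfb are higher in the ob/ob than in the lean libraries and Angpt1 stands at 7.80 in ob/ob GRmKO mice. The median of all genes relative to the pair, not drawn, is also higher with obesity, by log2 0.22 in GRf/f and 0.50 in GRmKO mice.

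GRmKO was compared with GRf/f mice within each background, using the same 4 libraries. In lean mice, 9 of the 10 genes were higher in GRmKO, where 57.4% of all genes were, 8 of them with a counting interval that excluded 0, and Flt1 was at -0.0037. The log2 fold changes were 0.24 for Pecam1 and Cdh5, 0.26 for Kdr, 0.42 for Tek, 0.15 for Tie1, 0.20 for Nos3, 0.15 for Vegfa, 0.28 for Angpt1 and 0.05 for Vegfb, whose sign turned with TMM and DESeq2's factors. None of the 10 was past 1.5-fold, where 9.45% of all genes were upward and 7.76% downward. In ob/ob mice 7 of the 10 genes were lower in GRmKO, where 55.9% of all genes were, so this count is near the background. They were the 7 endothelial genes, from -0.34 for Nos3 and -0.31 for Tek to -0.11 for Pecam1, whose interval contained 0. Vegfa was at 0.02 and Vegfb at 0.13 there. Angpt1, at 0.62 (0.36 to 0.87), was the 1 gene past 1.5-fold upward, where 8.6% of all genes were, and 0 of 10 were past it downward, where 12.2% of all genes were. The median of the 10 genes was 0.22 in lean and -0.12 in ob/ob mice, against 0.05 and -0.04 over all genes.

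The difference between the genotypes in the log2 fold change with obesity, GRmKO minus GRf/f, was below 0 for 8 of the 10 genes, and it was below 0 for 57.5% of all genes. It was -0.73 for Tek, -0.54 for Nos3, -0.38 for Cdh5 and Kdr, -0.36 for Pecam1 and -0.33 for Tie1, and -0.13 for both Flt1 and Vegfa. It was 0.08 for Vegfb and 0.34 for Angpt1. The median over the 10 genes was -0.34, and that over all genes was -0.07. Pecam1, Cdh5, Kdr, Tek, Tie1 and Nos3 were higher in GRmKO than in GRf/f mice when lean and lower when ob/ob, a pattern of signs held by 30.1% of all genes. The same 4 values enter both ways of looking at this difference, and it was not tested.

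The other endothelial genes were taken from a list of 26 that holds none of the 10, and 26 of 26 had counts in all 4 libraries. The list was chosen with earlier results of these data known and was measured in the same 4 libraries, so it is not independent of the 10 genes. With obesity, 23 of 26 were lower in GRf/f mice, where 62.1% of all genes were, with a median of -0.43. Past 1.5-fold lower were 8, where 16.5% of all genes were. In GRmKO mice 26 of 26 were lower, where 67.2% of all genes were, with a median of -0.84. Past 1.5-fold lower were 23, where 23.9% of all genes were. The counts past 1.5-fold shrank to between 4 and 7 in GRf/f and between 14 and 21 in GRmKO mice under 4 other scalings. Shares of all genes past 1.5-fold under those scalings are not given here. At least 22 were lower in GRf/f and 26 in GRmKO mice under each of these scalings. The median of the 26 genes was thus at least as low as that of the 10 genes, which include the ligands. Cd34, a surface sialomucin of capillary endothelium and of some stromal cells, was at 136 CPM in lean GRf/f, 159 in lean GRmKO, 101 in ob/ob GRf/f and 86.3 in ob/ob GRmKO mice. Eng, a co-receptor of the TGF-β family on endothelium, was at 110, 134, 82.4 and 77.3 CPM, and S1pr1, the sphingosine-1-phosphate receptor of the vessel wall, at 114, 92.4, 63.7 and 63.6 CPM. Cd34 and Eng had the same order of libraries as Pecam1, whereas S1pr1 was lower in lean GRmKO than in lean GRf/f mice. Robo4, a guidance receptor of endothelium, was past 2-fold in both genotypes, with 18.3, 18.9, 7.44 and 6.51 CPM and log2 fold changes with obesity of -1.30 and -1.54. Sox17, a transcription factor of arterial endothelium, was at 8.03, 8.54, 5.38 and 2.08 CPM, with -0.58 in GRf/f and -2.04 in GRmKO mice.

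**Figure D4:**
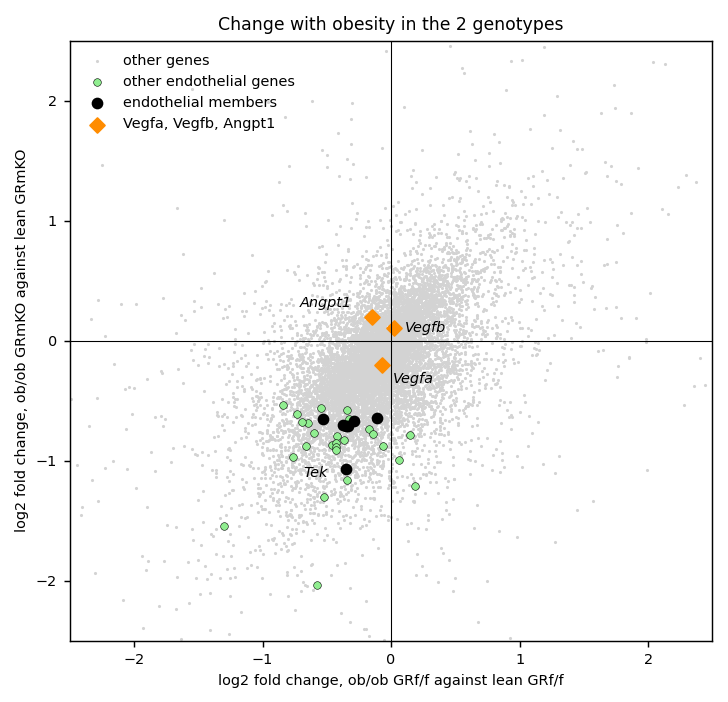
Log2 fold change with obesity in GRf/f (x axis) and GRmKO mice (y axis), with 1 point per gene. Grey points are 11082 genes with a mean of at least 50 counts, and 59 genes beyond 2.5 on either axis are not drawn. The 7 endothelial genes and the 26 other endothelial genes lie below 0 on the y axis, and Vegfa, Vegfb and Angpt1 lie near the origin.

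Among the other VEGF ligands, receptors and co-receptors, 5 of 6 were lower with obesity in GRf/f mice and 6 of 6 in GRmKO mice. Past 1.5-fold lower was 1 in each genotype, Pgf in GRf/f and Nrp1 in GRmKO mice, where 16.5% and 23.9% of all genes were. The counts of lower genes here and in the lists that follow stand beside 62.1% of all genes lower in GRf/f and 67.2% in GRmKO mice. With TMM, DESeq2's or upper quartile factors, 4 of the 6 were lower in GRf/f and 5 of 6 in GRmKO mice, and of these only the upper quartile factors left Nrp1 past 1.5-fold. Pgf, a further ligand of VEGFR1, was at 8.12, 4.73, 3.48 and 3.25 CPM in the lean GRf/f, lean GRmKO, ob/ob GRf/f and ob/ob GRmKO libraries. Nrp1, the neuropilin that binds VEGF-A together with VEGFR2, was at 57.6, 60.8, 46.6 and 35.7 CPM in the same order. Its log2 fold change with obesity was -0.31 in GRf/f and -0.77 in GRmKO mice, similar to that of Kdr. Flt4, the lymphatic receptor VEGFR3, was at 20.0, 18.8, 16.3 and 13.2 CPM, and Nrp2 at 14.0, 17.9, 15.8 and 12.1 CPM. Of the other genes of the angiopoietin and Tie system, 3 of 3 were lower with obesity in both genotypes, which became 2 of 3 in GRf/f mice under each of 4 other scalings. Ptprb, the phosphatase that restrains TIE2, was at 192, 170, 149 and 129 CPM, with -0.37 in GRf/f and -0.39 in GRmKO mice. Angpt2, the ligand that opposes Angpt1 in many settings, was at 6.47, 8.65, 6.39 and 4.76 CPM, so it was lowest in the library where Angpt1 was highest. Angpt4 was at 1.36 CPM or less in every library.

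Of 10 genes set by VEGF, of tip cells and of the Notch pathway, 8 were lower with obesity in each genotype, with medians of -0.39 and -0.42. Notch1 was at 42.1, 41.9, 30.8 and 32.0 CPM and Nid2, a basement membrane nidogen, at 41.8, 50.9, 48.7 and 34.9 CPM. Rcan1, an inhibitor of calcineurin that VEGF induces in endothelium and that muscle fibres also express, was at 74.3, 105, 73.5 and 138 CPM. Rcan1 was thus higher in both GRmKO libraries, by 0.50 in lean and 0.91 in ob/ob mice on the log2 scale. Apln, the ligand apelin, was the gene of the pathway lists nearest to Angpt1 over the 4 libraries, with 8.40, 9.66, 6.39 and 10.8 CPM.

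The nitric oxide pathway had 11 measured genes besides Nos3, of which 8 were lower with obesity in GRf/f and 7 in GRmKO mice. These counts are near the shares over all genes, and with TMM or DESeq2's factors 6 of 11 were lower in each genotype. Cav1, the caveolin that binds and inhibits endothelial nitric oxide synthase, was at 366, 409, 349 and 245 CPM, with log2 fold changes of -0.07 and -0.74. Nos1, the synthase of muscle fibres, was higher in ob/ob mice at 62.2, 47.5, 80.7 and 70.6 CPM. The synthases of fibre and endothelium therefore had opposite signs with obesity in GRmKO mice, 0.57 for Nos1 and -0.65 for Nos3. Nosip was at 29.7, 31.5, 23.9 and 24.2 CPM. Of 8 measured genes that act downstream of the VEGF receptors, 3 were lower in GRf/f mice (Akt1, Plcg1 and Ptk2) and these 3 with Pxn and Hspb1 in GRmKO mice, and medians were 0.01 and -0.19, beside -0.11 and -0.21 over all genes. Pxn turned higher in GRmKO mice with TMM and DESeq2's factors, which left 4 of 8 lower. Akt1, Pxn and Hspb1, the most abundant of them, had log2 fold changes of -0.12, 0.0041 and 0.02 in GRf/f and of -0.23, -0.15 and -0.39 in GRmKO mice. These are broadly expressed kinase, adhesion and heat shock genes, and Sh2d2a and Src were listed at 0 in at least 1 library and left out.

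Of 11 regulators of Vegfa, 6 were higher with obesity in GRf/f and 5 in GRmKO mice, where 37.9% and 32.8% of all genes were. Medians were 0.0026 and -0.00071, where the median of all genes was at -0.11 and -0.21. With TMM, DESeq2's or upper quartile factors, 8 of 11 were higher in GRf/f and 7 of 11 in GRmKO mice, so the split depends on the scaling. Epas1, the hypoxia-inducible factor HIF-2α that is abundant in endothelium, was at 325, 321, 276 and 249 CPM. Egln1, the oxygen sensor PHD2, was higher in ob/ob mice at 212, 218, 279 and 278 CPM, and Egln2 stayed between 89.0 and 91.3 CPM. Hif1a was at 34.4, 38.9, 36.0 and 39.2 CPM and was the nearest profile to Vegfb. Among 7 inhibitors of angiogenesis, 5 were higher with obesity in GRf/f mice (Thbs1, Thbs2, Col18a1, Adamts1 and Sparc), where 37.9% of all genes were. Past 1.5-fold higher were 3 of them (Thbs1, Thbs2 and Sparc), where 7.99% of all genes were. Only Thbs1 was higher in GRmKO mice, where 32.8% of all genes were. Adamts1 and Col18a1 turned higher in GRmKO mice too with TMM, DESeq2's and upper quartile factors, and the median of the list there, -0.24, was close to that of all genes. Thbs1, which encodes thrombospondin-1, was at 28.0, 30.2, 78.0 and 57.8 CPM, with 1.48 in GRf/f and 0.94 in GRmKO mice. Sparc was at 1054, 1113, 1625 and 940 CPM and Adamts1 at 52.1, 52.2, 74.5 and 48.9 CPM, so both were highest in ob/ob GRf/f mice. Of the 5 fibroblast markers, Col1a1 and Col3a1 were also highest in ob/ob GRf/f mice, and Dcn, Lum and Pdgfra in lean GRmKO mice.

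**Figure D5:**
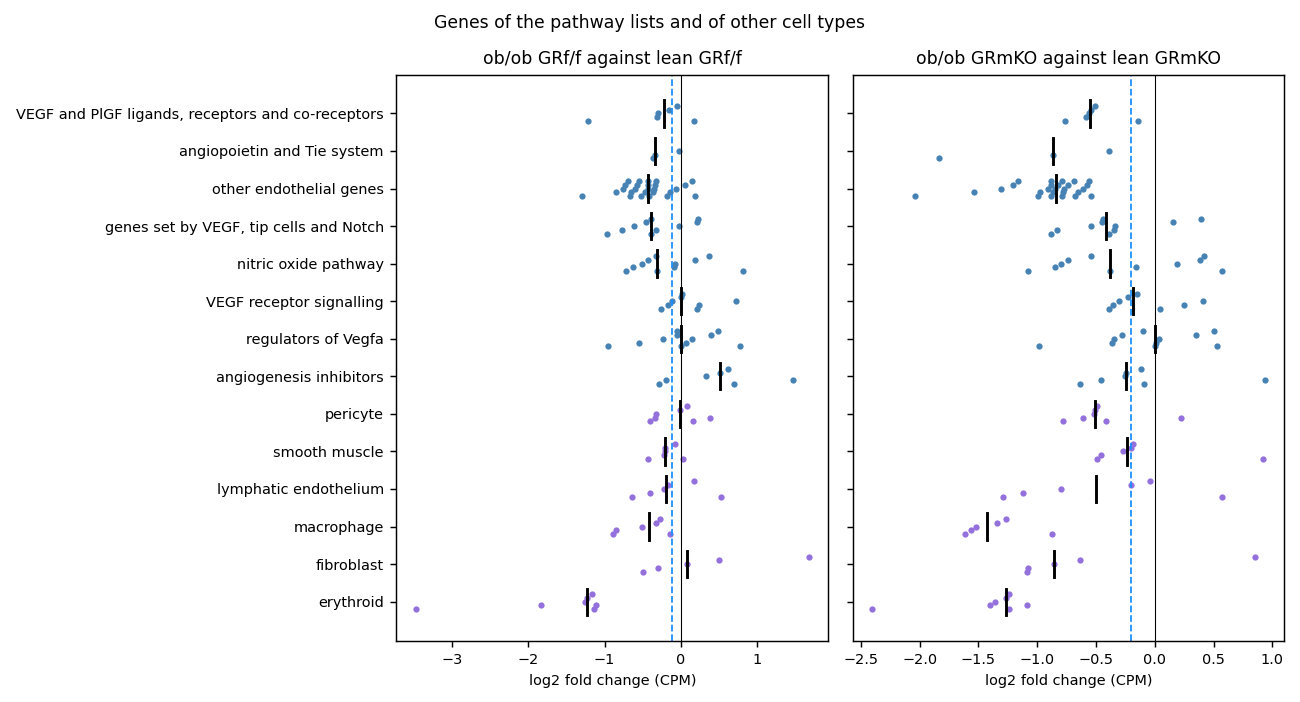
Log2 fold change with obesity (x axis) for each gene of the pathway lists without the 10 genes (blue) and of marker lists of other cell types (purple), in GRf/f (left) and GRmKO mice (right). Black bars are list medians, and dashed lines the median of all genes. Other endothelial genes have medians of -0.43 and -0.84, and erythroid genes of -1.23 and -1.27.

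The gene whose level over the 4 libraries was most like that of each member was found among 88 genes of the pathway lists, as the smallest value of the largest log2 difference in any library after centring. Pecam1 and Cdh5 were nearest to each other, with a largest difference of 0.02. Kdr was nearest to Cdh5 (0.03) and Tie1 to Pecam1 (0.05). Tek was nearest to Erg (0.05), an ETS factor of endothelium, Nos3 to Plvap (0.06), a protein of endothelial pores, and Flt1 to Rasip1 (0.07). Vegfa was nearest to Pxn (0.04) and Vegfb to Hif1a (0.08), which are not restricted to endothelium. Angpt1 was nearest to Apln (0.14), the largest of these distances. Counting error widens the distance between genes with few counts, and Angpt1 and Apln had means of 268 and 182 counts. The distance therefore does not show that Angpt1 lacks a near neighbor. These distances rest on 4 libraries.

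Markers of other cell types also differed between the libraries. Pericyte markers, led by Rgs5 and Abcc9, summed to 1174, 1252, 1000 and 885 CPM in the lean GRf/f, lean GRmKO, ob/ob GRf/f and ob/ob GRmKO libraries, and 4 of 7 were lower with obesity in GRf/f and 6 of 7 in GRmKO mice. Smooth muscle markers, led by Acta2 and Smtn, summed to 507, 522, 445 and 427 CPM, with 5 of 6 lower in each genotype. With DESeq2's factors 3 of 6 smooth muscle markers were lower in GRmKO mice, and under each of 4 other scalings 3 of 7 pericyte markers were lower in GRf/f mice. Both lists had the same order of libraries in their sums as the summed endothelial genes, but not in each of their genes. The pericyte sum was carried by Rgs5 (759, 806, 572 and 468 CPM), whereas Abcc9 (219, 220, 218 and 257 CPM) was highest in ob/ob GRmKO mice. Acta2 (174, 170, 165 and 150 CPM) was highest in lean GRf/f mice. Medians of the pericyte and smooth muscle lists were -0.01 and -0.21 in GRf/f and -0.51 and -0.24 in GRmKO mice. Over all genes the median was -0.11 in GRf/f and -0.21 in GRmKO mice. Lymphatic markers, led by Lyve1 and Ccl21a, summed to 103, 97.0, 85.2 and 56.6 CPM, with 4 of 6 lower in GRf/f and 5 of 6 in GRmKO mice, or 3 of 6 there with TMM and DESeq2's factors. Macrophage markers, led by Csf1r and C1qa, summed to 258, 309, 183 and 115 CPM and were lower with obesity in 6 of 6 in each genotype, with medians of -0.42 and -1.43. Their sums had the order of libraries of the summed endothelial genes too. In GRmKO mice 6 of 6 were past 1.5-fold lower, where 23.9% of all genes were, and 6 of 6 under each of 4 other scalings. Past 2-fold lower there were 5, where 10.8% of all genes were. Erythroid markers, led by Hba-a2 and Hbb-bs, summed to 2230, 2128, 971 and 872 CPM. In both genotypes 7 of 7 were past 2-fold lower, where 6.98% of all genes were in GRf/f and 10.8% in GRmKO mice. Adipocyte markers, led by Cfd and Fabp4, summed to 996, 644, 573 and 354 CPM, and 6 of 7 were lower with obesity in each genotype. Cfd had the lowest values, -4.21 and -4.02, while Adipoq was at -0.02 and -0.12 and Lep was higher, by 2.30 and 2.84. Fibroblast markers, led by Col1a1 and Col3a1, summed to 3989, 4427, 6986 and 4050 CPM, a sum carried by the collagens. In GRmKO mice 4 of the 5 were past 1.5-fold lower with obesity, where 23.9% of all genes were. The median of the 5 was -0.86 there, with Col1a1 as the exception at 0.85. In GRf/f mice 2 of the 5 were lower, with a median of 0.08. The median in GRmKO mice was thus about that of the other endothelial genes. Slow fibre markers, led by Myh7 and Myl3, summed to 499, 651, 1087 and 1532 CPM. With obesity 8 of 8 were higher in each genotype, where 37.9% of all genes were in GRf/f and 32.8% in GRmKO mice. No marker of these lists was at 0 in any library. The part of blood content, of other cell types and of fibre type in the levels of the endothelial genes was not tested.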

How the data were processed

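The authors pooled the RNA of 3 mice per group, filtered the paired-end reads and ran Salmon v1.2.1 on the protein-coding transcripts of GENCODE. Gene values came from tximport under R v3.5.0 with the lengthScaledTPM option, and only the most abundant entry of a repeated gene name was kept. What was deposited are expected counts, estimated counts scaled by transcript length and not normalized between libraries. Groups were taken from the sample labels, and age and pooling from the study.

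Expected counts were divided by the library total and given as CPM. The background was the 14206 genes that had a count above 0 in every library. Levels have Wilson 95% intervals, and fold changes and ratios within a library exact binomial ones, from rounded counts (scipy 1.17.1). Changes of a ratio between libraries, and the difference between genotypes in the change with obesity, have 95% intervals from a normal approximation on unrounded counts. With 1 library per group no test was made, and differences were described by a fold of 1.5 or 2. The fold and interval calculation was tested on simulated data. Alternatives were edgeR 4.0.16 TMM and upper quartile factors, DESeq2 1.42.0 size factors (R 4.3.3, rounded counts, scaling only), a library total that leaves out the 50 most abundant genes, the median gene, the pair Pecam1 plus Cdh5, and other filters. Coordinates are from GENCODE on GRCm38, in which 22252 of 22252 listed transcripts were found. The genes and lists were chosen with earlier results of these data known. All 10 genes were named, and of each pathway list the 3 others with the highest mean CPM, those past 2-fold in at least 2 comparisons with a mean of at least 50 counts, the nearest profiles, and the 2 most abundant markers per list. A marker list fixed with the others is not reported here. Genes outside this rule were named where a count of 5 or fewer needed it, after their values were seen. Figures were drawn with matplotlib 3.10.9.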

Additional observations from a re-analysis of the deposited data

Results flagged for a closer look

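For 6 endothelial genes the direction of the difference between GRmKO and GRf/f mice was opposite in lean and ob/ob mice, higher in GRmKO when lean and lower when ob/ob. The difference of their log2 fold changes with obesity, GRmKO minus GRf/f, was -0.3556 for Pecam1, -0.3797 for Cdh5, -0.3757 for Kdr, -0.7252 for Tek, -0.325 for Tie1 and -0.5374 for Nos3. Signs were opposite in 46.9% of all genes. Angpt1 had opposite signs with obesity in the 2 genotypes, each with an interval that contains 0. Its difference was 0.338, with a counting interval (-0.01 to 0.69) that contains 0. The share of all genes with opposite signs with obesity is not given here. With 1 library per group, none of these differences was tested.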

How the results depend on the processing

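No paired analysis was possible because each group has 1 library and no replicate number, and for the same reason no library could be left out. The 7 of 10 genes past 1.5-fold lower with obesity in GRmKO mice became 1 with TMM, DESeq2 or upper quartile factors and 1 at a 2-fold threshold, and 5 without the 50 most abundant genes. In plain CPM 23.9% of all genes were past 1.5-fold lower there and 10.8% past 2-fold. Shares under the other scalings are not given here, so those counts have no background beside them. The median of the 10 genes in that comparison was -0.4555 with TMM, -0.4462 with DESeq2's and -0.5191 with upper quartile factors, and in GRf/f mice it was -0.1951 with DESeq2's factors. The 1 gene past 1.5-fold higher in ob/ob GRmKO against ob/ob GRf/f mice became 0 at 2-fold, where 4.05% of all genes were past it upward. Relative to Pecam1 plus Cdh5, the log2 fold changes with obesity in GRmKO mice turned to 0.0439 for Kdr, 0.0578 for Flt1, 0.0089 for Tie1 and 0.0649 for Nos3. Of 200 values of the 10 genes under other scalings between libraries, 11 changed sign, and these were values of Vegfa and Nos3 with obesity and of Vegfb between lean genotypes. The counts of the pathway and marker lists under other scalings were added after the data had been seen. Past 1.5-fold lower, the 26 other endothelial genes counted 5, 4, 5 and 7 in GRf/f and 15, 14, 19 and 21 in GRmKO mice with TMM, DESeq2's and upper quartile factors and without the 50 most abundant genes. In plain CPM they counted 8 and 23, where 16.5% and 23.9% of all genes were past it. Depth limits Angpt1 most, which had from 219 to 335 counts.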
